A study of Rattus norvegicus with 12 samples.

Results

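The Hox genes and the other limb patterning transcription factors were examined in tibial bone of young female rats. Members were the probe sets whose annotation gave exactly 1 gene symbol, beginning with Hoxa, Hoxb, Hoxc or Hoxd and a number, or belonging to the Meis, Pbx, Tbx, Pitx or Shox families. The rule found 48 of the 31042 probe sets tested, for 39 genes. Hox genes made up 23 of these genes with 25 probe sets, and 1 further probe set was for Hoxa11-as, an RNA from the opposite strand of Hoxa11. The rest were 3 probe sets of Meis, 3 of Pbx, 11 of Tbx for 6 genes, 2 of Pitx and 3 of Shox2. The family name is wider than the limb, since Hoxa11-as encodes no transcription factor, Tbx19 is known from the pituitary and Pitx3 from the eye and midbrain. Hoxa13, Hoxc10, Hoxc11, Hoxd13 and Tbx21 were not analysed here.

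RNA came from the right tibia of female Sprague-Dawley rats on postnatal day 34, after the marrow had been aspirated. Rats of the CAS group ate a casein diet, those of the SPI group a diet with soy protein isolate, those of the E2 group the casein diet with 17 beta estradiol at 10 µg/kg/d from a pump under the skin, and those of the SPI+E2 group the soy diet with the same dose. By the labels the diets and E2 ran from postnatal day 21, the same in all 4 groups, whereas the study's methods give an earlier start. Each group had 3 Affymetrix arrays, and each array carried RNA pooled from 2 to 3 rats, so p-values measure the spread between pools and precision is limited by having 3 arrays a group.

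Hox genes lie in 4 clusters, and their order along a cluster matches the order along the body axis in which they act. Genes at the 3′ end of a cluster, with low numbers, pattern the hindbrain and neck, and genes at the 5′ end, with high numbers, pattern the lower trunk and the segments of the limb. Hox proteins bind DNA together with Pbx and Meis proteins, and Pitx1 and Tbx4 mark the hindlimb where Tbx5 marks the forelimb. Cells of the adult skeleton keep the Hox genes of the region they came from, so a tibia is a tissue in which the 5′ genes are in use.

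The start regions of some of the Hox genes that responded are given here beside those of neighbours that did not. The genes can thus be compared in sequence as well as in signal. Hoxa9, Hoxa10, Hoxd10 and Hoxd1 are the 4 members whose change with SPI was lower under E2 at a limma adjusted p under 0.05. Hoxd9 and Hoxd11 flank Hoxd10 and were past no test. Each window holds the 250 bases before a RefSeq start in GRCr8, 5′ to 3′ on the gene's strand. Hoxa10 has a second RefSeq start, whose window (chr4:82665923-82666172) is not printed and holds TATAAA at -159 on the opposite strand. Capitals mark CACGTG (the E-box core), AGGTCA (a core element read by nuclear receptors) and TATAAA, searched on both strands.
Hoxa9 (chr4:82657049-82657298, minus strand): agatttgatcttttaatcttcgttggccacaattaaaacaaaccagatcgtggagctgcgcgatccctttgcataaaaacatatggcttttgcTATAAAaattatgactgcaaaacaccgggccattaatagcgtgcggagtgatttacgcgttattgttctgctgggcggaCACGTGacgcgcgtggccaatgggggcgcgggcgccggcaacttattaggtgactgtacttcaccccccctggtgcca
Hoxa10 (chr4:82671491-82671740, minus strand): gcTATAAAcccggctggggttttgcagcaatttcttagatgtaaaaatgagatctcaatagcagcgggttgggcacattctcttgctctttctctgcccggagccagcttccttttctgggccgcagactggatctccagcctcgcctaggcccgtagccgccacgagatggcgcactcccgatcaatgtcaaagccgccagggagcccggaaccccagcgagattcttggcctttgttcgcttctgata
Hoxd10 (chr3:80001697-80001946, plus strand): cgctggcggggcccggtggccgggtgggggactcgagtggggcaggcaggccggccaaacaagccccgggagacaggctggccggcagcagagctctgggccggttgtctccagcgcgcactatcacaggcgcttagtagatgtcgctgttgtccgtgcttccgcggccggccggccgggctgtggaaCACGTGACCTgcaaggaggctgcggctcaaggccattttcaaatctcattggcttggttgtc
Hoxd1 (chr3:80072791-80073040, plus strand): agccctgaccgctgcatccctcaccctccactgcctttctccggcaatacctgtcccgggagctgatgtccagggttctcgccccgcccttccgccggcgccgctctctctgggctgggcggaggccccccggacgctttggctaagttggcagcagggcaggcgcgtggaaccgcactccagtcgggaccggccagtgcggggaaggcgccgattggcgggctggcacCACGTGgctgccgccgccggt
Hoxd9 (chr3:80007756-80008005, plus strand): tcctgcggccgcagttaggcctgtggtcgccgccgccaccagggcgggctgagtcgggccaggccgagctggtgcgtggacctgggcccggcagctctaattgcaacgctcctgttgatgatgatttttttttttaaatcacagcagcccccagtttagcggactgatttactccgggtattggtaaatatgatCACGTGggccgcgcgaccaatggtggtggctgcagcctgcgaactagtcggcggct
Hoxd11 (chr3:79992144-79992393, plus strand): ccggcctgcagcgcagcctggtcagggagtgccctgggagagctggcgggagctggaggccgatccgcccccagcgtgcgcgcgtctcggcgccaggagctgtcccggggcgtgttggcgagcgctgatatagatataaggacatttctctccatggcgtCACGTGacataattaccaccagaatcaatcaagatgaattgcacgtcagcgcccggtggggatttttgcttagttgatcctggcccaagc
A window was held for 23 of the 39 genes. None was held for Hoxb2, Hoxb3, Hoxb13 or Hoxc9, which were also past a test. The window of Hoxd8, past the test between SPI and E2, is not printed and holds none of the motifs searched. CACGTG, which was picked after these windows had been read, lay in 7 of the 23 genes and in 5.593% of the 33469 windows of all genes. Of these 7, Hoxa9, Hoxd1 and Hoxd10 were past the interaction test described below, while Hoxa7, Hoxd3, Hoxd9 and Hoxd11 were past no test, so the element was found in responding and flat genes alike. It stood at position -78 from the start of Hoxa9, -62 for Hoxd10, -56 for Hoxd9, -90 for Hoxd11 and -21 for Hoxd1. AGGTCA was found in Hoxd10, Hoxd4 and Hoxc4 (14.064% of all windows), and in Hoxd10 it overlaps CACGTG, which gives the run of capitals there. TATAAA was found in Hoxa9, Hoxa10 and Tbx19 (12.931% of all windows). The Pbx-Hox motif TGATNNAT was found in Hoxa3l1 and Hoxd11 (7.96%), and the Meis motif TGACAG in Hoxa3l1, Tbx4 and Tbx5 (15.767%). Windows of members were rich in GC, with a median of 58.6% against 51.2% for all windows, and held a median of 14 CpG against 5.

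Deposited values are log2 signals centred on each probe set's own median over the 12 arrays, so they show differences between arrays and no level. The labelled tissue could therefore not be checked by the level of bone markers, and the signals of different genes cannot be ranked. The log base is as the methods name it, and the values do not show it. Array medians lay between -0.0042 and 0.0072. The array of SPI pool 1 stood apart, with an SD over all probe sets of 0.211 against 0.1285 to 0.164 for the other 11. The differences of members from CAS with SPI that the text turns on are given with and without that array. Without it, 3 of the 48 members were higher and 3 lower with SPI than in CAS, where 7.15% and 7.03% of all probe sets were. No arrays were identical. In bulk tissue, fewer cells of a type and less RNA per cell cannot be told apart.

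The share of members past the test lay near that of the whole array in most comparisons. With SPI, 4 of the 48 probe sets were higher than in CAS and 4 lower at a limma adjusted p under 0.05, where 8.25% of all probe sets were higher and 9.07% lower. With E2, 4 were higher and 1 lower, against 4.99% and 4.36% of all. With SPI+E2, 2 were higher and 1 lower, against 4.14% and 4.33%. SPI exceeded E2 in 2 members and fell below it in 7, where 7.98% and 8.75% of all probe sets did. Without SPI pool 1, SPI exceeded E2 in 2 members and fell below it in 3, against 6.51% and 6.79% of all. An F test over the 4 groups called 10 of the 48, or 20.8%, against 25.2% of all probe sets. Median log2 differences from CAS over the members were 0.01, 0.02 and 0.05 in the order SPI, E2 and SPI+E2, beside 0.01, -0.01 and 0.02 over all probe sets. These 3 comparisons share the CAS arrays.

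**Figure D1:**
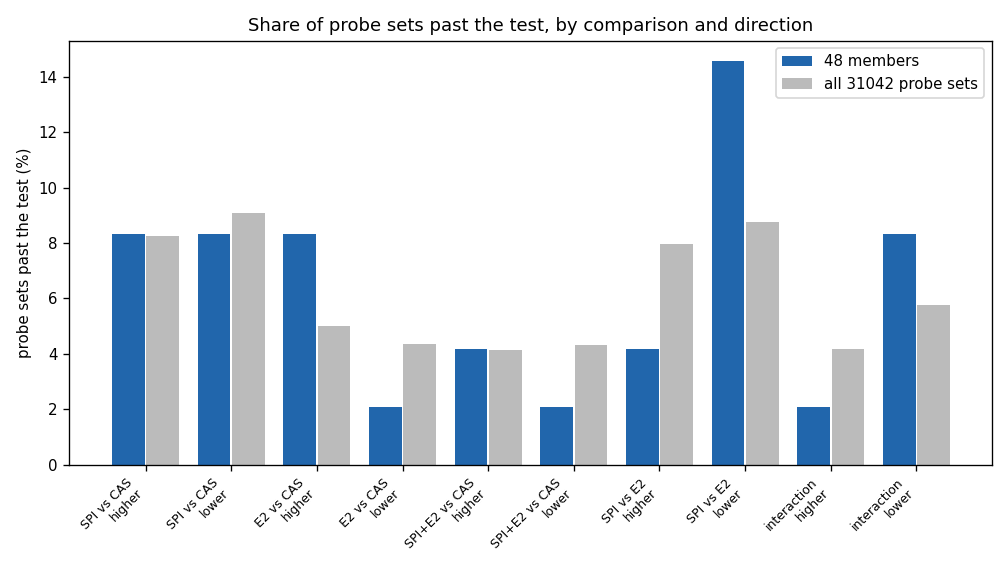
Share of probe sets past the test (%) by comparison and direction, for the 48 members (blue bars) and for all 31042 probe sets (grey bars). Members lay at 8.33% higher and 8.33% lower with SPI, close to the grey bars, and farthest above them at 14.6% for lower in SPI than in E2.

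A total of 11 of the 48 members, each of a different gene, differed from CAS in at least 1 comparison, where 23.8% of all probe sets did. Hoxb3, Hoxc9, Hoxd10, Meis2 and Tbx3 did so with SPI alone, Hoxd1 and Pbx3 with E2 alone, Hoxa9 and Hoxa10 with both, Hoxb2 with SPI and SPI+E2, and Shox2 with E2 and SPI+E2. Hoxa9 was past the test in all 3. Of all probe sets, 9.34% were past the test with SPI alone, 2.89% with E2 alone, 5.42% with SPI and E2, 4.85% with SPI and SPI+E2, 3.33% with E2 and SPI+E2, and 2.3% in all 3, the pairs including probe sets past in all 3, so the members lay near the background in these counts. The remaining 37 probe sets were past none. An effect past the threshold with 1 treatment and not with another is not shown to differ between them, and the direct comparison of SPI with E2 is given for each gene where it was past the test.

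**Figure D2:**
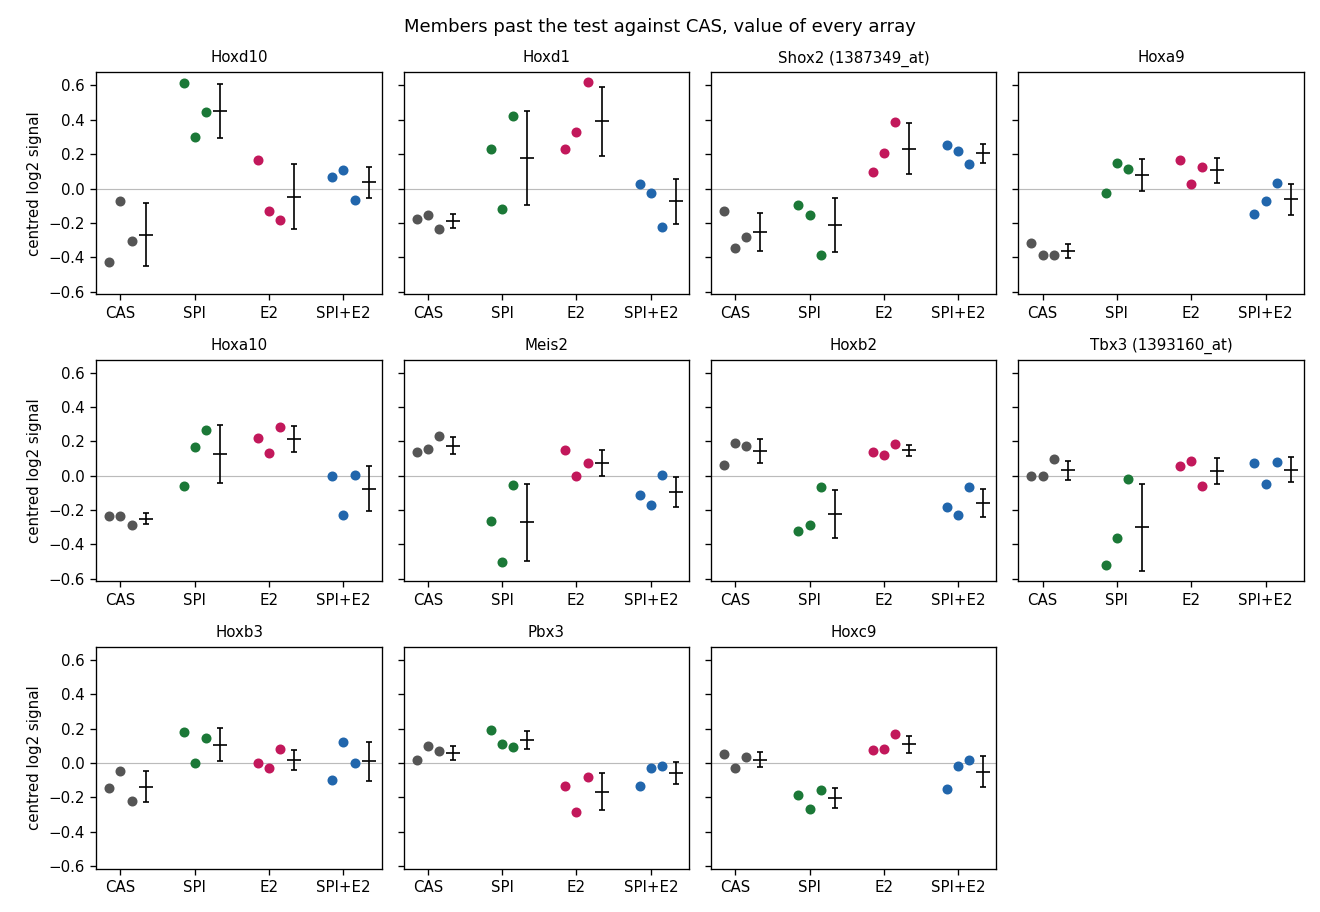
Centred log2 signal of each array (points) for the 11 members past the test against CAS, by group, with the mean and SD beside the points (black, n = 3 pools). Hoxa9 arrays of SPI, E2 and SPI+E2 all lie above the CAS arrays, and the Hoxd10 arrays of SPI lie above those of all other groups.

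Among the 5′ Hox genes of groups 9 to 13, Hoxa9, Hoxa10 and Hoxd10 rose and Hoxc9 fell with SPI. Hoxa9, known for its role in blood progenitors and in the axial skeleton, rose under all 3 treatments. Its centred signals were -0.32, -0.38 and -0.39 in CAS, -0.03, 0.15 and 0.11 in SPI, 0.17, 0.03 and 0.12 under E2, and -0.15, -0.07 and 0.03 in SPI+E2. All CAS arrays lay below every array of the other groups, and SPI and E2 arrays overlapped. The rise was 0.44 log2 units with SPI (1.36-fold, SE 0.0648, limma adjusted p = 0.00067), 0.47 under E2 (1.38-fold, adjusted p = 0.000564) and 0.30 under SPI+E2 (1.23-fold, adjusted p = 0.0149). SPI minus E2 was -0.03 (95% interval -0.17 to 0.11). Without SPI pool 1 the rise with SPI was 0.49 (adjusted p = 0.000553) and SPI minus E2 was 0.02 (-0.12 to 0.17). The rise with SPI+E2 was lost without CAS pool 2 (0.29, adjusted p = 0.0524), CAS pool 3 (0.29, adjusted p = 0.0604) or SPI+E2 pool 3 (0.25, adjusted p = 0.0516).

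Hoxa10, which patterns the uterus and the upper segment of the hindlimb, lies beside Hoxa9 in the cluster. Its values were -0.23, -0.23 and -0.28 in CAS, -0.06, 0.17 and 0.27 in SPI, 0.22, 0.13 and 0.29 under E2, and 0.00, -0.23 and 0.00 in SPI+E2. Arrays of SPI and E2 were all above CAS, SPI pool 1 being the lowest of them, and the lowest SPI+E2 array lay just above the CAS arrays. Hoxa10 rose by 0.38 with SPI (1.30-fold, SE 0.0863, limma adjusted p = 0.0108) and by 0.46 with E2 (1.38-fold, adjusted p = 0.0045). Leaving out SPI pool 1 took the rise with SPI to 0.47 (adjusted p = 0.0023). With SPI+E2 the difference was 0.17 (95% interval -0.01 to 0.36, adjusted p = 0.251).

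Hoxd10, a gene of the limb and of the motor neurons of the lumbar cord, had the largest difference of any member from CAS in the SPI group. Values were -0.43, -0.07 and -0.31 in CAS, 0.61, 0.30 and 0.44 in SPI, 0.17, -0.13 and -0.18 under E2, and 0.07, 0.10 and -0.07 in SPI+E2. Every SPI array lay above every array of the other 3 groups, while E2 overlapped CAS. Hoxd10 was 0.72 higher with SPI than in CAS (1.65-fold, SE 0.115, limma adjusted p = 0.00115) and 0.50 higher than in E2 (adjusted p = 0.0116). Without SPI pool 1, the highest array, these differences were 0.64 (adjusted p = 0.00527) and 0.42 (adjusted p = 0.0446), and without E2 pool 3 the latter lost the call (0.43, adjusted p = 0.0526). Differences from CAS were 0.22 under E2 (adjusted p = 0.318) and 0.30 under SPI+E2 (adjusted p = 0.131).

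Hoxc9, which sets the thoracic identity of motor neurons, went the other way in the SPI group. Its values were 0.05, -0.03 and 0.04 in CAS, -0.19, -0.27 and -0.16 in SPI, 0.08, 0.08 and 0.17 under E2, and -0.15, -0.02 and 0.02 in SPI+E2. The SPI arrays were the lowest 3 of the 12, and the E2 arrays the highest 3. The fall with SPI was -0.22 against CAS (1.17-fold lower, SE 0.0579, limma adjusted p = 0.0201) and -0.31 against E2 (1.24-fold lower, adjusted p = 0.0033). The difference from CAS was -0.23 without SPI pool 1 (adjusted p = 0.039). Leaving out CAS pool 1, CAS pool 3 or SPI pool 2 took the fall to -0.21, -0.21 and -0.19, with adjusted p = 0.0777, 0.0678 and 0.0739.

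The measured neighbours of these genes in the clusters were not past the test with SPI, though Hoxc8, beside Hoxc9, had a difference of like size. Hoxc8 differed from CAS in SPI by -0.23 (95% interval -0.44 to -0.03, limma adjusted p = 0.115), or by -0.14 without SPI pool 1 (adjusted p = 0.355), and its SPI and CAS arrays overlapped. Hoxa7 and Hoxa11, the measured genes on either side of Hoxa9 and Hoxa10, differed from CAS in SPI by -0.08 (95% interval -0.30 to 0.14) and -0.01 (-0.22 to 0.20). Hoxd9 and Hoxd11, on either side of Hoxd10, differed by -0.06 (-0.19 to 0.06) and 0.08 (-0.13 to 0.28). Hoxa11 and Hoxd11 pattern the middle limb segment, which contains the tibia, and were past no test against CAS under any treatment. Their widest difference was 0.22 for Hoxa11 with SPI+E2 (adjusted p = 0.178), where its arrays of 0.13, 0.33 and 0.05 all lay above CAS values of -0.07, 0.02 and -0.10. The antisense RNA Hoxa11-as, whose start region shares 274 of 300 window bases with that of Hoxa11 on the opposite strand, differed by 0.06, -0.04 and 0.02 in the 3 comparisons. Hoxb13, the highest-numbered Hox gene measured and known from the tail and prostate, differed by -0.13, -0.11 and 0.10, none past the test.

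Among the 3′ and middle Hox genes of groups 1 to 8, Hoxb2 was lower than in CAS with SPI and with SPI+E2. Hoxb3 rose with SPI and Hoxd1 rose with E2. Hoxb2, a hindbrain patterning gene, had values of 0.06, 0.19 and 0.18 in CAS, -0.32, -0.29 and -0.06 in SPI, 0.14, 0.12 and 0.18 under E2, and -0.18, -0.23 and -0.07 in SPI+E2. All 6 arrays of rats on soy lay below all 6 arrays of rats on casein. The difference from CAS was -0.37 with SPI (1.29-fold lower, SE 0.0724, limma adjusted p = 0.00457), -0.30 with SPI+E2 (1.23-fold lower, adjusted p = 0.0245) and 0.00 with E2 (95% interval -0.15 to 0.16). SPI was also below E2, by -0.37 (adjusted p = 0.0045). The difference of SPI+E2 from E2 was -0.31 and was not tested. Without SPI pool 1 the fall with SPI was -0.32 (adjusted p = 0.0179). The SPI+E2 call was lost without CAS pool 2, CAS pool 3, SPI+E2 pool 1 or SPI+E2 pool 2, with falls between -0.27 and -0.29 and adjusted p between 0.0741 and 0.0898.

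Hoxd1, a gene of pain-sensing neurons among other sites, had values of -0.18, -0.15 and -0.23 in CAS, 0.23, -0.12 and 0.42 in SPI, 0.23, 0.33 and 0.62 under E2, and 0.03, -0.03 and -0.22 in SPI+E2. The E2 arrays were all above CAS and SPI+E2, and the SPI arrays were scattered, with pool 2 close to CAS. The rise with E2 was 0.58 (SE 0.130, limma adjusted p = 0.0136), and it lost the call without CAS pool 3 (0.56, adjusted p = 0.0537) or E2 pool 3 (0.47, adjusted p = 0.0616). With SPI the difference was 0.37 (95% interval 0.08 to 0.65, adjusted p = 0.0759), or 0.34 without SPI pool 1 (adjusted p = 0.176).

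Hoxb3, also of the hindbrain, had values of -0.14, -0.04 and -0.22 in CAS and 0.18, 0.00 and 0.14 in SPI, with no overlap between these groups. It rose by 0.24 with SPI (limma adjusted p = 0.0384), but the call was lost without CAS pool 1, CAS pool 3, SPI pool 1, SPI pool 3 or E2 pool 1, with rises between 0.20 and 0.24 and adjusted p between 0.055 and 0.142. It was also lost with a replicate block (adjusted p = 0.0616), with CAS and SPI alone in the fit (0.0746), with array weights (0.0601) and in the plain analysis of variance (0.0605). In the fit over all probe sets Hoxd8 was past the test only between the treatments, where SPI lay -0.15 below E2 (adjusted p = 0.0383). This call was lost without any of 9 of the 12 arrays in turn, all but SPI pool 2 and SPI+E2 pools 2 and 3. The differences then lay between -0.13 and -0.17, with adjusted p between 0.0505 and 0.13. A replicate block (adjusted p = 0.0567), SPI and E2 alone in the fit (0.132) and array weights (0.0571) also ended the call. Hoxa3l1, Hoxa5, Hoxa7, Hoxb4, Hoxb6, Hoxb7, Hoxc4, Hoxc5, Hoxc8, Hoxd3 and Hoxd4 were past none of the tests in that fit. Among them Hoxd4 with SPI (0.28, adjusted p = 0.0642), Hoxb6 with SPI (0.17, adjusted p = 0.0615) and Hoxc8 in SPI against E2 (-0.29, adjusted p = 0.0526) came closest. These were 0.18 (adjusted p = 0.213), 0.20 (adjusted p = 0.0582) and -0.20 (adjusted p = 0.172) without SPI pool 1. With a mean per gene all of them passed, at limma adjusted p = 0.045, 0.0331 and 0.0365. Hoxb6 in SPI against E2 (adjusted p = 0.0486) and Hoxd8 with SPI (-0.11, adjusted p = 0.0488) then passed too. Both probe sets of Hoxc4, and both of Hoxd3, agreed in being past no test.

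**Figure D3:**
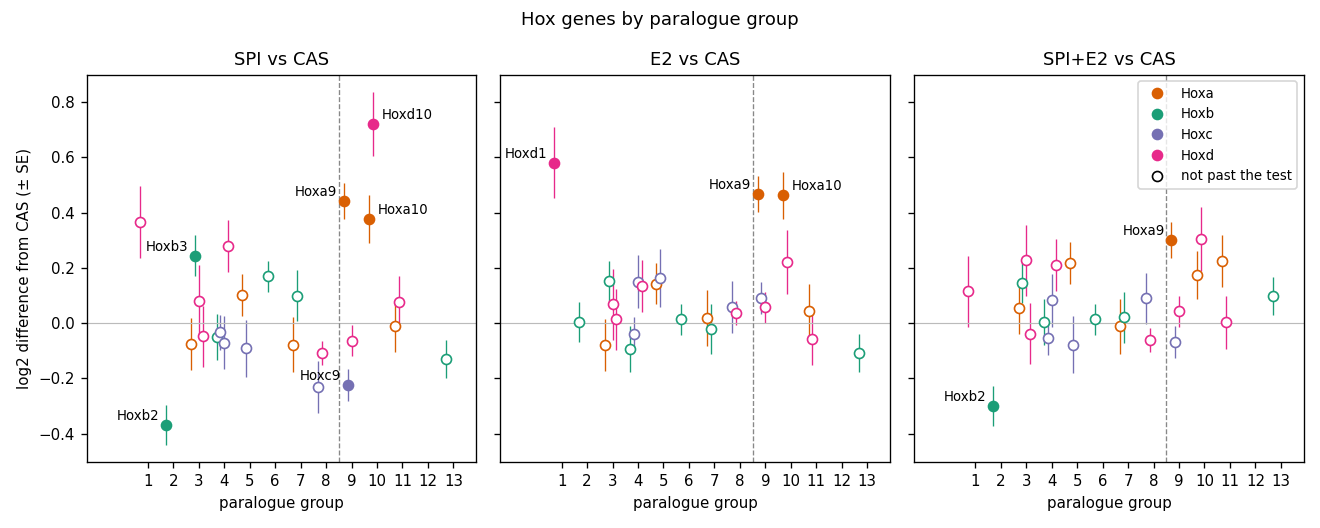
Log2 difference from CAS (± SE) of each Hox probe set against its paralogue group, by treatment, coloured by cluster, with filled points past the test and the dashed line between groups 8 and 9. With SPI the largest rises, 0.72 for Hoxd10 and 0.44 for Hoxa9, stand to the right of the line beside genes near 0.

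Counted together, 3 of the 8 measured 5′ genes were higher and 1 lower with SPI, 2 higher and 0 lower with E2, and 1 higher and 0 lower with SPI+E2. The shares over all probe sets were 8.25% and 9.07% with SPI, 4.99% and 4.36% with E2, and 4.14% and 4.33% with SPI+E2. Of the 17 probe sets of the 15 anterior genes, 1 was higher and 1 lower with SPI, 1 higher and 0 lower with E2, and 0 higher and 1 lower with SPI+E2. At an unadjusted limma p under 0.05, the posterior genes had 4, 2 and 3 calls in these comparisons and the anterior probe sets 7, 1 and 3, where 30.4%, 20.3% and 23.5% of all probe sets lay under it. The F test called 4 of the 8 posterior and 2 of the 17 anterior probe sets, against 25.2% of all. The median difference from CAS was 0.03, 0.07 and 0.14 for the 5′ genes under SPI, E2 and SPI+E2, and -0.05, 0.04 and 0.02 for the anterior genes. The difference between these medians with SPI was 0.08, and it was 0.00 without SPI pool 2 and 0.15 without SPI pool 3, so it turned on single pools.

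The mean of the 5′ genes minus the mean of the anterior genes gave a value for each array. It was -0.06, -0.07 and -0.11 in CAS, 0.06, 0.09 and 0.02 in SPI, 0.06, -0.02 and -0.07 under E2, and 0.02, 0.04 and -0.01 in SPI+E2. SPI and SPI+E2 arrays all lay above the CAS arrays, and E2 arrays ran from the SPI range down into the CAS range. With SPI, Hoxa9, Hoxa10 and Hoxd10 differed from CAS by 0.38 to 0.72, and the other 5 genes of the 5′ class by -0.22 to 0.08. No test was made of this contrast.

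**Figure D4:**
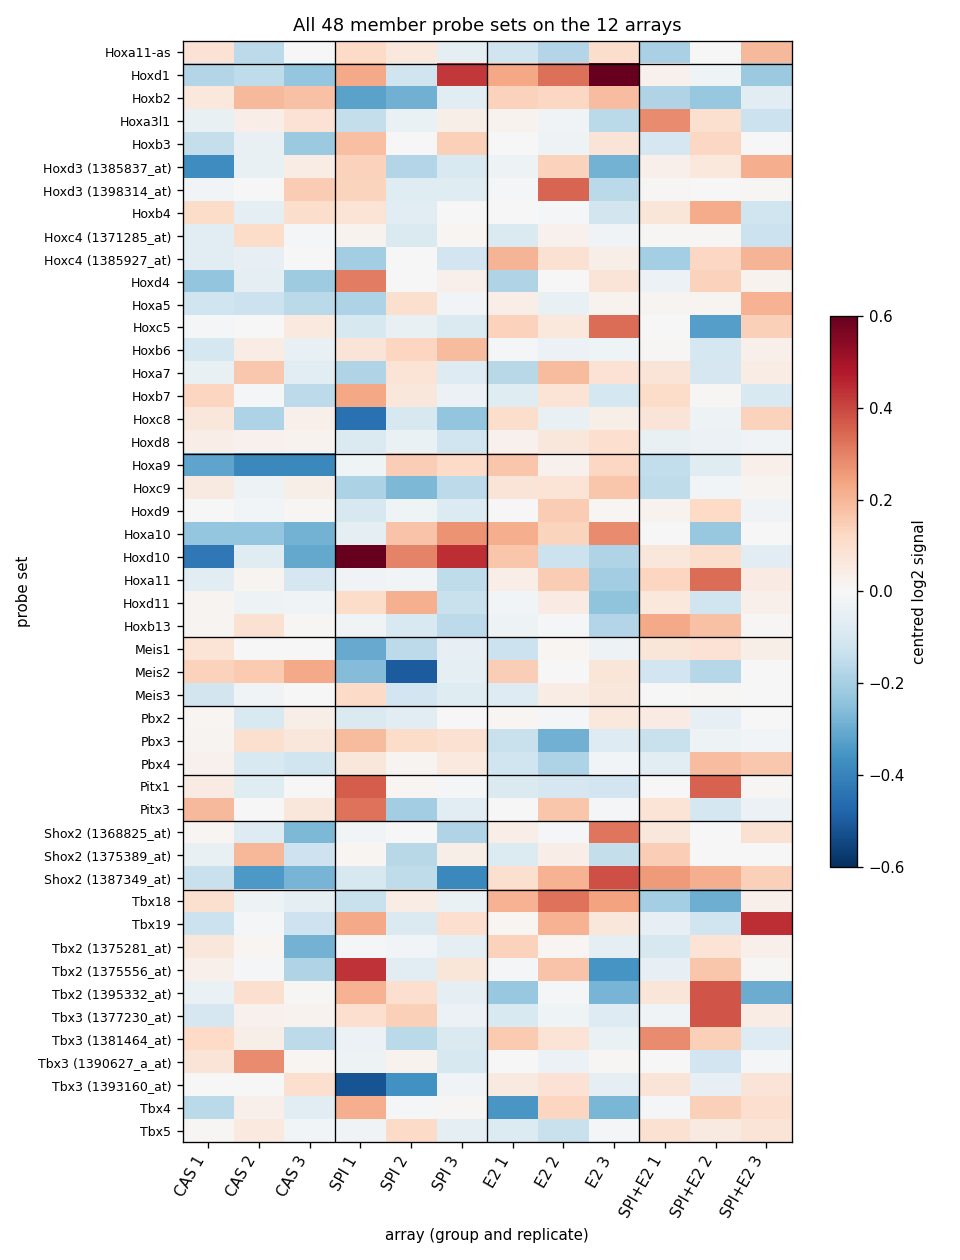
Centred log2 signal (colour, from blue for low to red for high) of all 48 member probe sets on the 12 arrays, ordered by family and paralogue group. Hoxa9 is blue in the 3 CAS arrays and Hoxd10 is red in the 3 SPI arrays, and most rows are pale throughout.

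Of the genes whose proteins partner Hox proteins, Meis2 fell with SPI and Pbx3 fell with E2. Meis2, which marks the upper limb segment in the embryo, had values of 0.14, 0.16 and 0.23 in CAS, -0.26, -0.50 and -0.05 in SPI, 0.15, 0.00 and 0.07 under E2, and -0.11, -0.17 and 0.00 in SPI+E2. The SPI and SPI+E2 arrays lay below all CAS arrays and overlapped each other. The fall with SPI was -0.45 (1.36-fold lower, SE 0.0953, limma adjusted p = 0.00732), or -0.45 without SPI pool 1 (adjusted p = 0.0202), and SPI lay -0.34 below E2 (adjusted p = 0.029). Without SPI pool 1, SPI pool 2, E2 pool 1 or E2 pool 3, the difference from E2 lay between -0.23 and -0.35, with adjusted p between 0.0632 and 0.103, and it was also lost with SPI and E2 alone in the fit (adjusted p = 0.094) and in the plain analysis of variance (0.0635). With SPI+E2 the difference from CAS was -0.27 (adjusted p = 0.109).

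Meis1, the paralogue of Meis2 that works with Hoxa9 in blood progenitors, differed from CAS by -0.20 with SPI (95% interval -0.34 to -0.05, adjusted p = 0.0611). Its SPI arrays of -0.30, -0.15 and -0.05 all lay below CAS values of 0.08, 0.00 and 0.00, and without SPI pool 1 the difference was -0.13 (adjusted p = 0.194). The difference with SPI was past the test with a mean per gene (limma adjusted p = 0.0369) and without SPI pool 3. Meis3 differed by at most 0.06 in size in the 3 comparisons with CAS. Pbx3 had values of 0.02, 0.10 and 0.07 in CAS, 0.19, 0.11 and 0.09 in SPI, -0.13, -0.29 and -0.08 under E2, and -0.13, -0.03 and -0.02 in SPI+E2. All 6 arrays with E2 lay below all 6 without it. Pbx3 fell by 0.23 with E2 (limma adjusted p = 0.0396) and stood 0.30 higher in SPI than in E2 (1.23-fold, adjusted p = 0.0067). The fall against CAS lost the call without CAS pool 1, 2 or 3, E2 pool 1 or 2, SPI pool 2 or SPI+E2 pool 2, with values between -0.17 and -0.25 and adjusted p between 0.0517 and 0.147. It was also lost with a replicate block (adjusted p = 0.0634), with CAS and E2 alone in the fit (0.0687) and with the flatter part of the probe sets left out (0.0599). The difference between SPI and E2 passed in 22 of 22 alternatives. Pbx2 and Pbx4 were past no test.

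The genes that set hindlimb and forelimb identity did not pass the test under any treatment. Pitx1, the hindlimb selector, differed from CAS by 0.13 with SPI (95% interval -0.11 to 0.37), -0.09 with E2 (-0.33 to 0.14) and 0.13 with SPI+E2 (-0.11 to 0.37). Tbx4, its partner in hindlimb outgrowth, differed by 0.14 (-0.11 to 0.38), -0.10 (-0.35 to 0.15) and 0.14 (-0.10 to 0.39). Tbx5, the forelimb gene, differed by -0.01 (-0.13 to 0.12), -0.09 (-0.21 to 0.03) and 0.06 (-0.07 to 0.18). The intervals of Pitx1 and Tbx4 are wider than those of Tbx5 in each comparison. Pitx1 was high in SPI pool 1 (0.36) and SPI+E2 pool 2 (0.35), and lay between -0.12 and 0.05 in the other 10 arrays. Without SPI pool 1 the differences with SPI were 0.01 for Pitx1 (-0.20 to 0.22), 0.06 for Tbx4 (-0.20 to 0.33) and 0.01 for Tbx5 (-0.13 to 0.15).

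Other T-box genes gave isolated calls. Tbx18, known from the somites and the sinus node, had values of 0.10, -0.03 and -0.06 in CAS, -0.13, 0.05 and -0.04 in SPI, 0.21, 0.32 and 0.24 under E2, and -0.21, -0.29 and 0.03 in SPI+E2. The E2 arrays were the highest 3 of the 12. SPI lay -0.30 below E2 (limma adjusted p = 0.0275), and the difference of E2 from CAS was 0.26 (adjusted p = 0.0848). The former lost the call without SPI pool 1, SPI pool 3 or any E2 pool, with values between -0.26 and -0.33 and adjusted p between 0.0524 and 0.0916, and also in the plain analysis of variance (adjusted p = 0.0544). Tbx3, which acts at the posterior limb margin, has 4 probe sets, and 1 of them (1393160_at) was -0.33 lower with SPI (adjusted p = 0.0451). This rested on pools 1 and 2, at -0.52 and -0.37 beside -0.02 in pool 3, and it lost the call without any array but SPI pool 3, with differences between -0.22 and -0.35 and adjusted p between 0.0519 and 0.151. This probe set was also lower in SPI than in E2, by -0.33 (adjusted p = 0.0482), and that call too was lost without any array but SPI pool 3 (-0.22 to -0.37, adjusted p 0.0552 to 0.157). Under other settings the first call was also lost with a replicate block, the compared groups alone, the plain analysis of variance and the mean per gene (adjusted p 0.0509 to 0.122), and the second with these and a robust prior (0.0521 to 0.131). The other 3 probe sets of Tbx3 differed by 0.09 (1377230_at), -0.09 (1381464_at) and -0.16 (1390627_a_at) with SPI, none past the test. Tbx2, with 3 probe sets, and Tbx19 were past no test, nor was Pitx3.

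Shox2, which controls growth of the upper limb bones and is also used in neurons, split by probe set. On 1387349_at the values were -0.13, -0.35 and -0.28 in CAS, -0.09, -0.15 and -0.39 in SPI, 0.09, 0.21 and 0.39 under E2, and 0.25, 0.22 and 0.14 in SPI+E2. All 6 arrays with E2 lay above all 6 without it, on either diet. The rise was 0.48 under E2 (1.40-fold, SE 0.0925, limma adjusted p = 0.00529) and 0.46 under SPI+E2 (1.37-fold, adjusted p = 0.0106), and SPI lay -0.44 below E2 (adjusted p = 0.00695), or -0.50 without SPI pool 1 (adjusted p = 0.0074). On 1368825_at the differences from CAS were 0.23 under E2 (adjusted p = 0.184) and 0.16 under SPI+E2, and on 1375389_at they were -0.07 and 0.04. Which transcripts each probe set reads was not analysed here.

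The interaction asked whether the change with SPI was the same with and without E2, and it is the difference of SPI+E2 from E2 less the difference of SPI from CAS. It was below 0 at a limma adjusted p under 0.05 in 4 members and above 0 in 1, where 5.75% and 4.17% of all probe sets were. Hoxd1 had -0.83 (SE 0.184, adjusted p = 0.0124), Hoxa10 -0.66 (SE 0.122, adjusted p = 0.004), Hoxd10 -0.64 (SE 0.162, adjusted p = 0.0273) and Hoxa9 -0.61 (SE 0.0916, adjusted p = 0.00097). In all 4 the mean of SPI was above that of CAS. The mean of SPI+E2 was below that of E2 for Hoxa9 (-0.06 and 0.11), Hoxa10 (-0.08 and 0.21) and Hoxd1 (-0.07 and 0.39), and stood at 0.04 beside -0.05 for Hoxd10. Hoxb13 had the positive value, 0.34 (SE 0.0974, adjusted p = 0.049). The calls for Hoxa9, Hoxa10 and Hoxd1 held in all 21 alternatives that could be run, that for Hoxd10 in 15 of 21 and that for Hoxb13 in 6 of 20. Without CAS pool 1, CAS pool 3, SPI pool 1, E2 pool 1 or SPI+E2 pool 3, Hoxd10 had between -0.53 and -0.62 with adjusted p between 0.0567 and 0.0698, and it was also lost in the plain analysis of variance (adjusted p = 0.071). Hoxb13 lost the call without any array but SPI pool 1 and SPI+E2 pool 3, with values between 0.29 and 0.37 and adjusted p between 0.0583 and 0.113, and also under quantile normalization, median centring, a robust prior and the plain analysis of variance (adjusted p 0.0504 to 0.0688).

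Markers of nerve were low in CAS and SPI+E2 and high in SPI and E2. By their means Hoxa9, Hoxa10 and Hoxd1 were lowest in CAS, higher in SPI+E2 and highest in SPI and E2. These genes were picked by their negative interaction, which fixes part of this order. Their means were higher in E2 than in SPI, whereas those of both nerve lists were higher in SPI. Of 21 probe sets for neuron genes, 17 were higher with SPI, 17 under E2 and 10 under SPI+E2, 0 were lower, and 17 had a negative interaction, where 8.25%, 4.99%, 4.14% and 5.75% of all probe sets did. The counts with SPI and for the interaction were also 17 and 17 without SPI pool 1. Their mean per array ran from -0.47 to -0.41 in CAS, 0.36 to 0.40 in SPI, 0.21 to 0.24 under E2 and -0.22 to -0.19 in SPI+E2. For 13 probe sets of Schwann cell genes the means were -0.28 to -0.26, 0.41 to 0.45, 0.23 to 0.27 and -0.30 to -0.27. Their group mean was thus lowest in SPI+E2 and not in CAS. With SPI+E2, 2 of the 13 were higher than in CAS and 3 lower, where 4.14% and 4.33% of all probe sets were. Nefl, a neurofilament gene, was 0.98 and 1.17 above CAS with SPI on its 2 probe sets. Hoxd10 was not high in E2, where its mean was -0.05 beside 0.45 in SPI. The part of nerve RNA in the Hox signals was not tested.

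**Figure D5:**
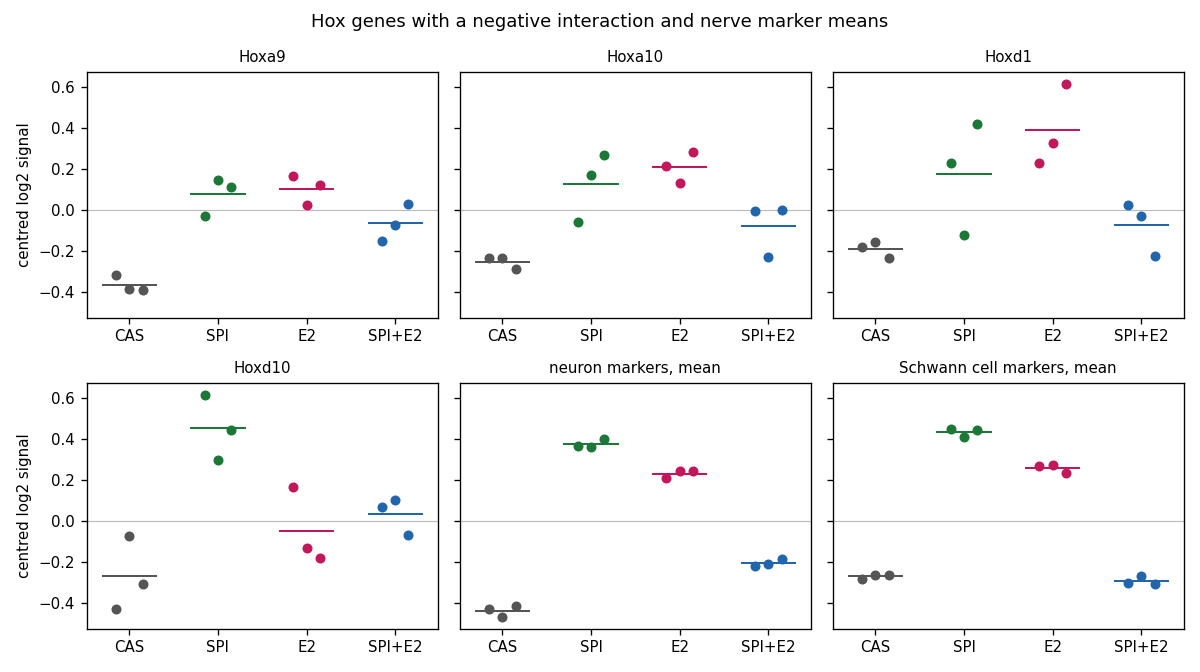
Centred log2 signal of each array (points, with group means as lines) for the 4 Hox genes with a negative interaction and for the mean of the neuron and Schwann cell marker probe sets. Neuron means lie near -0.44 in CAS, 0.38 with SPI, 0.23 under E2 and -0.21 under SPI+E2, and Hoxa9 and Hoxa10 share the order with CAS lowest and SPI and E2 highest. Schwann cell means are lowest under SPI+E2, near -0.29 beside -0.27 in CAS.

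Other tissue markers also differed between groups beside these genes. Growth plate cartilage markers (17 probe sets) averaged 0.36 in CAS, -0.33 with SPI, 0.08 under E2 and -0.09 under SPI+E2, an order shared by Meis2, which was 0.17, -0.27, 0.07 and -0.09. Meis2 was already called lower in SPI than in CAS and in E2, which fixes part of this order. Skeletal muscle markers (20 probe sets) were low in SPI alone, at -0.21 beside 0.02 to 0.04 in the other groups. Erythroid markers (15 probe sets) averaged 0.38, 0.04, -0.27 and -0.04, and markers of dividing cells (19 probe sets) 0.28, 0.03, -0.25 and -0.05, in the order CAS, SPI, E2 and SPI+E2. Osteoblast markers (13 probe sets) averaged 0.06 in CAS, -0.04 with SPI, 0.03 under E2 and -0.04 under SPI+E2, with every SPI array below every CAS array. With SPI 4 of the 13 were lower, or 30.8% against 9.07% of all. The list holds Bmp2, which had its lowest value with SPI (-0.44) and is counted again below among the limb signalling genes. The median difference of the list with SPI was -0.05, and 11 of the 13 lay below 0. Group means of T cell markers (19 probe sets) lay between -0.09 and 0.04. Their part in the results for the members was not tested.

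Among genes that act with or upstream of the Hox genes in the limb, Prrx1, Twist1, Bmp2 and Bmp4 fell with SPI and Grem1 and Isl1 rose. Of 54 probe sets for 33 limb signalling and limb field genes, 3 were higher and 11 lower with SPI, 4 higher and 0 lower with E2, and 5 higher and 5 lower with SPI+E2, with medians of 0.01, -0.03 and 0.00. Over all probe sets 8.25% were higher and 9.07% lower with SPI, 4.99% and 4.36% with E2, and 4.14% and 4.33% with SPI+E2. On leaving out SPI pool 1, 2 of the 54 were higher and 12 lower with SPI. Grem1, the BMP antagonist of the limb bud, rose in all 3 comparisons, by 0.52 with SPI (limma adjusted p = 0.000302), 0.32 under E2 (adjusted p = 0.0106) and 0.62 under SPI+E2 (adjusted p = 0.000259). Prrx1, a factor of limb mesenchyme, fell on 2 probe sets with SPI (-0.50 and -0.34) and with SPI+E2 (-0.67 and -0.41). Twist1, another mesenchymal factor, fell on 2 probe sets with SPI (-0.48 and -0.27), as did the ligand gene Bmp2 (-0.44 and -0.34), and Bmp4 fell on 1 (-0.34). Isl1, which acts in the early hindlimb field and in sensory and motor neurons, rose by 0.39 with SPI and 0.25 with E2 on 1 of its 2 probe sets, while the other differed by 0.22 (adjusted p = 0.0918) and 0.04 (adjusted p = 0.874). Without SPI pool 1 the differences with SPI were -0.44 and -0.26 for Prrx1 and -0.49 and -0.30 for Twist1. They were -0.40 and -0.30 for Bmp2 and -0.29 for Bmp4. The limma adjusted p of these falls ran from 0.000806 for Twist1 to 0.0489 for Prrx1. Grem1 stood at 0.55 (adjusted p = 0.000612) and Isl1 at 0.40 (adjusted p = 0.0016) and 0.14 (adjusted p = 0.29). Tfap2b rose on 3 probe sets with SPI+E2, by 0.44 to 0.86.

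In the retinoic acid pathway, which sets the anterior limits of Hox expression, 0 of 25 probe sets were higher and 4 lower with SPI, 1 higher and 1 lower with E2, and 1 higher and 4 lower with SPI+E2. With both directions together, 16%, 8% and 20% of the list were past the test, against 17.3%, 9.35% and 8.48% of all probe sets. On that measure the counts with SPI and with E2 lay near the background. The calls with SPI were all lower, where 9.07% of all probe sets were lower and 8.25% higher. With SPI+E2, 4.33% of all were lower and 4.14% higher. Aldh1a1, which makes retinoic acid, fell by 0.38 with SPI (limma adjusted p = 0.000258), as did the binding protein gene Crabp1, by 0.32. Without SPI pool 1 these differences were -0.39 (adjusted p = 0.000701) and -0.35 (adjusted p = 0.0112). Cyp26b1, which degrades retinoic acid, was higher on 1 of its 2 probe sets, by 0.29 under E2 (adjusted p = 0.0245) and 0.25 under SPI+E2 (adjusted p = 0.0494), and differed by 0.07 in both on the other (adjusted p = 0.645 and 0.567). Among 15 probe sets of other TALE genes, the class that holds Meis and Pbx, 1 was higher in each comparison (6.67%, against 8.25%, 4.99% and 4.14% of all) and none lower. Pknox2 rose by 0.41 under E2 (adjusted p = 0.00114) and 0.23 under SPI+E2, and Irx1 by 0.45 with SPI on 1 of its 2 probe sets (adjusted p = 0.0219), or 0.35 without SPI pool 1 (adjusted p = 0.0812), while the other differed by -0.17 (adjusted p = 0.285).

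Of 57 probe sets for Polycomb and trithorax genes, whose proteins keep Hox genes silent or active, 3 were higher and 5 lower with SPI, 1 higher and 6 lower with E2, and 0 higher and 7 lower with SPI+E2. With both directions together, 14%, 12.3% and 12.3% of the list were past the test, against 17.3%, 9.35% and 8.48% of all probe sets. By direction, 8.25% of all were higher and 9.07% lower with SPI, 4.99% and 4.36% with E2, and 4.14% and 4.33% with SPI+E2. The calls of the list with SPI+E2 were all lower. Ezh2, the methyltransferase of the repressive Polycomb complex, fell by 0.54 and 0.46 on its 2 called probe sets with E2 and by 0.27 and 0.36 with SPI+E2, and differed by 0.00 and -0.02 with SPI. Its remaining probe set was not past the test with E2. Rnf2, of the other Polycomb complex, fell with SPI by 0.43 and 0.39, or by 0.26 and 0.32 without SPI pool 1. On its 2 called probe sets Ezh2 was lowest in E2, as were the dividing cell markers. With SPI those markers differed from CAS by a median of -0.21, where Ezh2 differed by 0.00 and -0.02. The part of dividing cells in the values of Ezh2 was not tested.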

How the data were processed

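The authors scanned the arrays with GCOS, summarised probe intensities with RMA and then scaled the deposited log2 values by chip and by gene in GeneSpring, which leaves every probe set with a median of 0 over the 12 arrays and hides signal over background. Versions of GCOS and RMA and a genome build are not given in the sources used here. Groups and pool numbers came from the sample labels. Probe sets were named from the platform annotation, in which 20826 of 31042 had 1 symbol, 436 several and 9780 none. Another 57 control probe sets were left out, and 0 columns of sample values were unused. The gene table of assembly GRCr8 held all 48 member symbols and the gene number of 47.

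A linear model with the 4 groups as terms was fitted to all 31042 probe sets with limma 3.58.1 in R 4.3.3 (statmod 1.5.0), with Benjamini-Hochberg adjustment over all of them and a threshold of 0.05. The fit was tested on simulated data that kept the within-group spread. Intervals are 95% limits from the fit, not adjusted for the number of probe sets. Members and gene lists were chosen with earlier results of these data known. The genes named are the members past the test against CAS, by size of difference, and a fixed set of limb Hox genes, cofactors, Pitx1, Tbx4, Tbx5 and Shox2 whatever their values. Genes named from the pathway lists, and the remaining members, were picked after their values were seen.

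Alternatives were a replicate block, the compared groups alone, quantile normalization, median centring, a robust prior, array weights, a mean per gene, probe sets without _x_at and _s_at, the flatter part of the probe sets left out, the plain analysis of variance and leaving out each array. Promoter windows are from RefSeq.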

Additional observations from a re-analysis of the deposited data

Results flagged for a closer look

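The change with SPI differed with and without E2 in 5 of the 48 members (10.4%) by the interaction test of limma (adjusted p under 0.05). Of all probe sets 9.92% were past this test, so the count lay near the background. The value is the difference of SPI+E2 from E2 less the difference of SPI from CAS, in log2 units. It was -0.61 for Hoxa9, -0.66 for Hoxa10, -0.64 for Hoxd10 and -0.83 for Hoxd1. It was 0.34 for Hoxb13. The call for Hoxb13 held in 6 of 20 alternatives and that for Hoxd10 in 15 of 21. Groups of 3 arrays were too small to look for single arrays far from their group.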

How the results depend on the processing

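Of 30 gene results past the test, 16 stayed past it under every alternative run. They include Hoxd10, Meis2 and Hoxb2 with SPI, Hoxa9 and Hoxa10 with SPI and with E2, Shox2 (1387349_at) with E2 and SPI+E2, and the interactions of Hoxa9, Hoxa10 and Hoxd1. The number of members called ran, on leaving out each array, from 5 to 8 for SPI, 3 to 6 for E2, 1 to 4 for SPI+E2, 4 to 9 for SPI against E2, 3 to 6 for the interaction and 8 to 12 in the F test. Counts fell by over 1.5 times without CAS pool 1 (SPI 5, interaction 3), CAS pool 2 (SPI+E2 1), CAS pool 3 (SPI 5, E2 3, SPI+E2 1, interaction 3), SPI pool 1 (SPI against E2 5), E2 pool 1 (SPI against E2 5, interaction 3) and E2 pool 3 (SPI against E2 4). Except for SPI pool 1, the shares of all probe sets with an array left out are not given here. These falls in counts are therefore not shown to be particular to the members. The posterior less anterior median with SPI ran from -0.0039 to 0.149. The plain analysis of variance called 3 members for the interaction. With a mean per gene, 11 of the 39 genes were called for SPI, where 25.4% of all genes were, and 10 for SPI against E2 (24.1% of all). For the interaction it called 7 (15.8% of all), among them Meis1 (limma adjusted p = 0.0319) and Tbx18 (adjusted p = 0.0464). Shox2 (1375389_at) turned from -0.07 to 0.21 for E2 under the mean per gene, which joins its 3 probe sets, and on leaving out each array it ran from -0.117 to 0.0433 for SPI and from -0.139 to 0.0208 for E2, being above 0 without CAS pool 2. The cause of the other changes was not tested.

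Whether pools of the same number share more than the number is not settled by the labels or the values. Of 18 same-number pairs, 4 had residual correlations over 0.1 (-0.07 to 0.24), and 6 of 12 arrays were nearest to their own number. The median correlation was 0.04 for same-number pairs and -0.01 for pairs of other numbers. With a replicate block the members called were 6 for SPI, 4 for E2, 3 for SPI+E2, 7 for SPI against E2, 5 for the interaction and 11 in the F test. The shares of all probe sets called with the block are not given here, so no change particular to the members is shown.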
